A study of Mus musculus with 12 samples.

Results

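The 101 genes described here are T cell receptor variable (V) segments, the germline pieces that encode most of the part of the receptor that touches antigen. They are the genes of the deposited table whose symbol begins with Trav, Trbv, Trgv or Trdv, for the alpha, beta, gamma and delta chain, and that had at least 10 reads summed over the 12 libraries, 101 of 25189 genes. Gamma V segments that the table lists as Tcrg-V are not among them. Another 16 V segments had fewer reads, 45 in total, and were left out. The members were 73 TRAV segments, 25 TRBV segments, 2 TRDV segments and 1 TRGV segment, and all 101 were matched to the GENCODE M21 annotation of the GRCm38 mouse genome. The annotation classes 92 of them as functional segments and 9 as pseudogenes.

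The RNA came from regulatory T (Treg) cells of the spleen, taken from female mice aged 4 weeks, with 3 groups of 4 libraries. Libraries labelled WT came from Treg cells with wild-type Foxp3, the transcription factor that defines the Treg lineage. Libraries labelled deltaIcre came from cells carrying the Foxp3∆EGFPiCre allele, labelled Foxp3-deficient, and libraries labelled Ric from cells that carried that allele and were also Rictor∆/∆, where Rictor encodes a component particular to mTOR complex 2, a kinase complex. The cells were double-sorted as CD4+RFP+ or CD4+YFP+ from Foxp3∆EGFPiCre/RFP R26YFP and Foxp3∆EGFPiCre/+ Rictor∆/∆ R26YFP females, so that the hosts were heterozygous and kept Treg cells with a working Foxp3 allele. Cre is driven from the Foxp3 locus in both mutant groups, the R26YFP reporter stands in all the genotypes named, and reporter colour goes with genotype. Since no label ties a library to a mouse, the p-values speak only of the spread between these libraries, which may be technical. A library is named by its group and replicate number, as in WT 4.

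A T cell builds its receptor by joining a V segment to a joining (J) segment, with a diversity (D) segment between them in the beta and delta chains, and the joined exon is spliced to a constant gene: Trac for alpha, Trbc1 or Trbc2 for beta, Trdc for delta. The V segment ends shortly after a conserved cysteine, and the junction that follows forms the loop that differs most from cell to cell. Each segment has its own promoter, and thymic selection and the number of cells of each clone are among the things that set how often it is found. In RNA, the share of a segment within its chain (its reads as a percent of all V reads of that chain in a library) follows the number of cells that use it and the receptor RNA per cell. In bulk samples, fewer cells with a segment and less RNA per cell cannot be told apart.

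The ends of the segments that carry the results are given first, because the segments are told apart only by such sequence. Each is the last 60 bases of the segment's transcript in GENCODE M21 (GRCm38), 5′ to 3′ on the coding strand, with the last in-frame cysteine codon in capitals. Among the TRBV segments are the leading one, Trbv3 (chr6:41048290-41048828, plus strand), the related pair Trbv13-2 (chr6:41121396-41121832, plus strand) and Trbv13-3 (chr6:41130147-41130585, plus strand), whose ends differ at 8 of 60 bases, and Trbv19 (chr6:41178375-41179048, plus strand).
Trbv3: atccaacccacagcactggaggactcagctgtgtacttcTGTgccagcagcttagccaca
Trbv13-2: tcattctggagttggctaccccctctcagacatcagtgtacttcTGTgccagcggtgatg
Trbv13-3: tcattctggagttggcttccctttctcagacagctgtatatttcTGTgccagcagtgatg
Trbv19: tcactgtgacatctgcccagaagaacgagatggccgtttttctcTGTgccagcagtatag

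The TRAV locus of this genome holds duplicated blocks, so that many TRAV segments have copies marked d or n. Trav14-3 (chr14:53763173-53763694), its copies Trav14n-3 (chr14:53370077-53370575) and Trav14d-3-dv8 (chr14:53078452-53079045), all on the plus strand, show how near such copies are: the last 60 bases of Trav14-3 differ from those of Trav14n-3 at 2 positions and from those of Trav14d-3-dv8 at 3. Trav17 (chr14:53806639-53807115, plus strand), shown after them, is the TRAV segment whose share varied most between libraries relative to counting error. Trgv2 (chr13:19336573-19337167, minus strand) is the gamma member, and the table lists a related gamma segment that is no member, Tcrg-V4 (chr13:19184974-19185506, plus strand).
Trav14-3: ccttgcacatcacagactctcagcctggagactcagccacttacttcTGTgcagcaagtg
Trav14n-3: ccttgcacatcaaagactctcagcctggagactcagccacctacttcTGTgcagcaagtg
Trav14d-3-dv8: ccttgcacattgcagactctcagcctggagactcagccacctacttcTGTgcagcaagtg
Trav17: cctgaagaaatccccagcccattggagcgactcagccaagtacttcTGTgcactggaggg
Trgv2: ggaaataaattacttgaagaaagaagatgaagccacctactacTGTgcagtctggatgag
Tcrg-V4: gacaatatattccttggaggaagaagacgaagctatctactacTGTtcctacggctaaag

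Gene reads numbered 15769737 to 26114044 per library, and V segments took 0.0856% of them in WT, 0.0788% in deltaIcre and 0.110% in Ric (means, n = 4). Of 224625 reads of the members, TRBV segments held 85.0%, TRAV segments 14.7%, TRDV segments 0.289% and the TRGV segment 0.0503%. A library had 8629 to 24252 TRBV reads and 1972 to 3854 TRAV reads. Summed markers of CD4 T cells lay between 4027 and 5028 CPM (reads scaled to a common library size with TMM, edgeR's trimmed mean of M values) in all 12 libraries, and summed Treg markers at 2184 to 2405 CPM in WT, 765 to 883 in deltaIcre and 1024 to 1110 in Ric. Between Ric and deltaIcre the Treg markers went both ways (edgeR log2 fold change). Nrp1 was at 0.94, Ctla4 at 0.50, Il2ra at 0.49, Foxp3 at -0.21 and Ikzf2 at -0.40. Summed B cell markers, most of them from Ighm, were at 1252 to 1479 CPM in WT and at 669 to 937 in the mutant groups. Reads that aligned to more than 1 place made up 27.0% ± 1.26 in WT, 26.9% ± 2.80 in deltaIcre and 32.1% ± 0.854 in Ric (SD, n = 4). Such reads were not counted to any gene, and their part in the results on V segments was not tested.

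Sequence sets how well each segment can be counted. Of all 50-base words of a TRBV segment, a median of 100% occurred in no other GENCODE transcript, and 23 of 25 TRBV segments had over 90% such words. For TRAV segments the median was 56.9%, and 27 of 73 were under 50%. Of 111 annotated TRAV segments with a copy, 48 had an identical copy, and only 2 of those 48 reached 10 reads, while 56 of the 63 whose copies differ did. Values of single TRAV segments are therefore uncertain where copies exist.

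A few TRBV segments made up most of the beta chain reads in every group. Trbv3 held 12.9% of TRBV reads on average over the 12 libraries, followed by Trbv13-2 at 12.2% and Trbv16 at 9.18%, and the first 8 segments together held 71.3%. Per base of exon, Trbv13-2 came first with 14.6% of the chain, then Trbv3 with 11.5% and Trbv16 with 9.38%, and the same 8 segments led. Trbv3 was the leading segment by reads in 8 libraries, the 4 WT libraries among them, and Trbv13-2 in the other 4. At the other end, 4 TRBV segments held under 0.1% of the chain.

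Within the beta chain, the shares of Trbv3 and Trbv13-3 fell and those of Trbv19 and Trbv20 rose in Ric against WT, and the share of Trbv13-3 fell in deltaIcre against WT, by the edgeR test given after the values. For Trbv3, Trbv13-3, Trbv19 and Trbv1, 4 of 25 TRBV segments, the WT libraries did not overlap with those of either other group. Over all genes tested, CPM did not overlap for 17.8% between deltaIcre and WT and for 39.7% between Ric and WT, so that the count of 4 does not stand above the rest of the genes. The share of Trbv3 was 14.1%, 15.2%, 15.2% and 13.9% in the WT libraries, 12.7%, 12.3%, 12.4% and 12.2% in deltaIcre, and 13.01%, 11.4%, 10.5% and 11.3% in Ric. Every WT library was above every library of the other groups, and deltaIcre and Ric overlapped. For Trbv13-3 the shares were 5.41%, 4.80%, 4.68% and 5.18% in WT, 3.95%, 4.00%, 3.50% and 4.13% in deltaIcre, and 4.33%, 4.01%, 3.82% and 3.57% in Ric. Here too the lowest WT library exceeded the highest of the other 8.

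Trbv19 took 7.18%, 7.97%, 7.71% and 8.10% of TRBV reads in WT, 9.03%, 8.87%, 8.998% and 10.5% in deltaIcre, and 8.90%, 10.4%, 9.06% and 10.1% in Ric. Trbv1 (chr6:40891229-40891885, plus strand) took 7.31%, 7.08%, 6.52% and 7.11% in WT, 8.51%, 8.91%, 7.95% and 8.35% in deltaIcre, and 7.48%, 7.42%, 8.45% and 8.88% in Ric. The 8 libraries of the mutant groups lay above the highest WT library for both, but the share of Trbv1 passed in neither comparison with WT (adjusted p 0.0531 in deltaIcre, 0.0848 in Ric). Trbv3 and Trbv13-3 together held at least 19.1% of the chain in WT, 15.9% to 16.7% in deltaIcre and 14.4% to 17.3% in Ric. Trbv19 and Trbv1 together held 14.2% to 15.2% in WT, 16.9% to 18.8% in deltaIcre and 16.4% to 19.0% in Ric. Shares of a chain sum to 100%, so that a gain of 1 segment lowers the others.

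**Figure D1:**
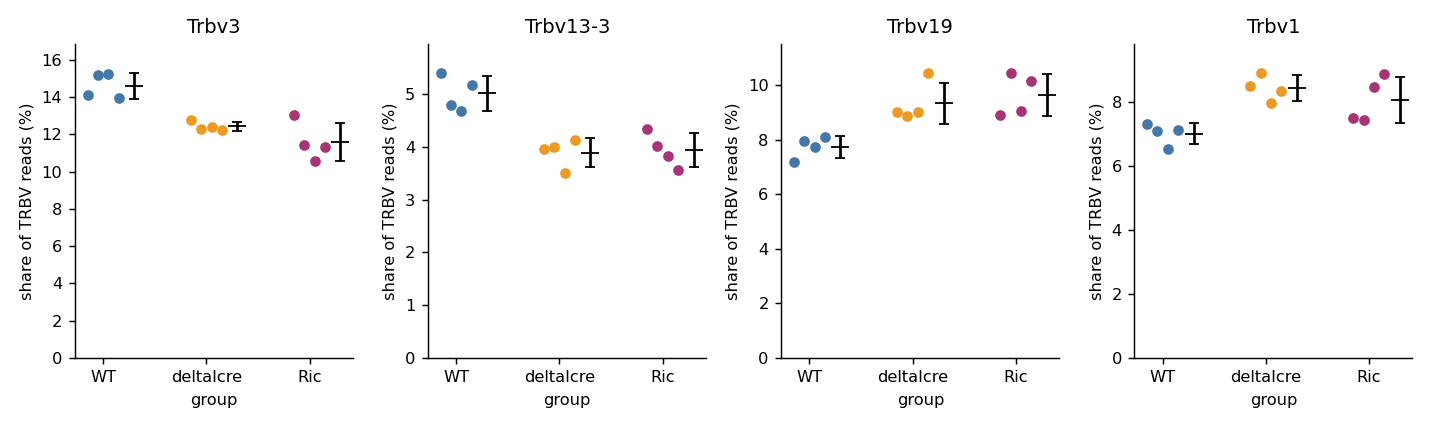
Share of TRBV reads (percent, linear axis from 0) of Trbv3, Trbv13-3, Trbv19 and Trbv1 in each library, with the group mean and SD (n = 4) beside the points. For these 4 segments the WT libraries do not overlap with those of either other group, while deltaIcre and Ric overlap with each other.

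Shares were tested with edgeR's quasi-likelihood fit across all 13196 genes that passed the filter on low counts, in which the summed V reads of a chain served as the library size of its segments, with Benjamini-Hochberg adjustment over all genes. The filter kept 80 of the members with such a chain total: 57 TRAV, 21 TRBV and 2 TRDV segments. All other genes kept the TMM-scaled library size. The adjusted p-values of shares therefore also depend on how many of those genes passed by level. An adjustment over the segments alone is not given here. Unadjusted edgeR p-values of the shares that passed ran from 0.00054 (Trbv3, Ric against WT) to 0.0154 (Trav14-3, Ric against WT). In deltaIcre against WT, Trbv13-3 was the 1 segment of 80 that passed (threshold 0.05). Of all genes, nearly all of them tested by level, 13.7% passed and 6.74% were lower. Its share fell by 0.37 on the log2 scale (SE 0.10, adjusted p 0.0256). Trbv19 (0.27, adjusted p 0.0519), Trbv1 (0.27, adjusted p 0.0531) and Trbv3 (-0.23, adjusted p 0.0575) did not pass, although their groups did not overlap.

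The fall of Trbv13-3 in deltaIcre did not pass in a fit of only the groups compared (adjusted p 0.0610), with no filter (0.0680), or without WT 1 (0.0819), WT 5 (0.0678) or deltaIcre 4 (0.0785). Trbv19 passed without deltaIcre 1 (adjusted p 0.0453) or deltaIcre 3 (0.0435), or with each library's trend in length and GC content removed (0.29, adjusted p 0.0186), and Trbv3 passed without Ric 2 (0.0435). The log2 differences kept their sign in all of these fits.

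In Ric against WT, 5 of 80 segments passed in share, where 32.5% of all genes passed, nearly all of them tested by level. Trbv3 fell by 0.34 on the log2 scale (SE 0.08, adjusted p 0.0044) and Trbv13-3 by 0.35 (SE 0.10, adjusted p 0.0161). Trbv19 rose by 0.32 (SE 0.09, adjusted p 0.0125) and Trbv20 by 0.30 (SE 0.11, adjusted p 0.0440), and Trav14-3, described with the alpha chain, fell. Trbv3 and Trbv19 passed with each of the 12 libraries left out in turn and in every other fit of shares tried. Trbv13-3 did not pass without WT 1 (adjusted p 0.0510) or Ric 5 (0.0560). Both comparisons with WT use the same 4 WT libraries, so that they are not independent of each other.

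Trbv20 (chr6:41188273-41188977, plus strand) held 3.38%, 3.38%, 3.98% and 3.25% of the chain in WT, 3.38%, 3.93%, 4.14% and 3.87% in deltaIcre, and 4.28%, 3.87%, 4.71% and 4.43% in Ric. WT 4 stood above Ric 3, so that the groups overlapped. The rise in Ric did not pass without WT 1 (adjusted p 0.0963), WT 3 (0.0978), WT 5 (0.106), Ric 2 (0.0677), Ric 4 (0.126) or Ric 5 (0.0961), with no filter (0.103), or with the trend in length and GC removed (0.21, adjusted p 0.138).

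In Ric against deltaIcre, 1 of 80 segments passed in share, where 27.1% of all genes passed, nearly all of them tested by level. Trbv15 (chr6:41141188-41141658, plus strand) held 3.19%, 3.50%, 2.89% and 2.88% of the chain in deltaIcre and 3.60%, 3.81%, 3.91% and 4.52% in Ric, with WT at 3.03% to 3.68%. The 4 Ric libraries were all above the 4 deltaIcre libraries. Its share rose by 0.35 on the log2 scale (SE 0.11, adjusted p 0.0348), and it did not pass with no filter (0.0780), in a fit of these groups only (0.0694), or without deltaIcre 4 (0.0902), deltaIcre 5 (0.0723), Ric 3 (0.0570), Ric 4 (0.0665) or Ric 5 (0.119). Trbv2 (chr6:41047340-41047995, plus strand) held 11.8%, 8.28%, 10.3% and 9.54% in deltaIcre against 9.06%, 8.01%, 7.69% and 6.78% in Ric, a log2 difference of -0.34 that did not pass (adjusted p 0.0522). It passed with the trend in length and GC removed (-0.38, adjusted p 0.0391), with a stricter filter (0.0446), and without WT 5 (0.0469), deltaIcre 3 (-0.42, 0.0160) or Ric 2 (-0.41, 0.0319). Trbv15 was also the 1 TRBV segment of 25 whose shares did not overlap between Ric and deltaIcre, where 25% of all genes had no overlap in CPM.

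The shares of other beta chain segments, several of them commonly typed with antibodies, overlapped between the groups. Trbv13-2 held 12.5% ± 0.662 of TRBV reads in WT, 11.97% ± 0.633 in deltaIcre and 12.2% ± 0.489 in Ric (SD, n = 4). Trbv16 held 8.63% ± 0.793, 9.31% ± 0.251 and 9.62% ± 0.619, and Trbv12-2 held 5.57% ± 0.219, 5.96% ± 0.570 and 5.78% ± 0.326, in the same order. Trbv31 (chr6:41557691-41558452, minus strand), which lies beyond the J and constant genes, held 5.91% ± 0.794, 5.51% ± 0.340 and 5.35% ± 0.772. Trbv26 lay between 2.06% and 2.97% in all libraries. Trbv29 reached 2.25% in deltaIcre 5 (95% Wilson interval 2.03% to 2.49%, 360 of 15984 reads) and 1.28% in the next library of that group. None of these passed in share in any of the 3 comparisons.

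Beta chain RNA as a whole stood higher in Ric. TRBV reads summed to 684, 658, 659 and 745 CPM in WT, 467, 812, 619 and 693 in deltaIcre, and 858, 1093, 980 and 1102 in Ric. All Ric libraries were above all others, and deltaIcre 1 was the lowest. Reads outside annotated genes made up 4.63% to 5.47% in Ric and 6.22% to 9.27% in the other libraries, highest in deltaIcre 1, and the sum of the 2 CD8 T cell markers was 24.9 to 27.5 CPM in Ric and 14.5 to 21.2 elsewhere, nearly all of it Cd8b1. The part of either in the beta chain level was not tested. The Ric mean was 1.56 times that of deltaIcre and 1.47 times that of WT. TRAV reads summed to 137, 130, 142 and 139 CPM in WT, 107, 155, 154 and 154 in deltaIcre, and 123, 133, 132 and 111 in Ric, with overlap between Ric and each other group. There were 6.95 to 9.93 TRBV reads per TRAV read in Ric and 4.03 to 5.35 in the other libraries.

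Levels of single segments were tested in the edgeR fit in which the whole library is the scale. In Ric against deltaIcre, 16 of the 81 members tested rose and 0 fell. Of all genes, 27.2% passed, with 13.9% of all genes higher and 13.3% lower. All 16 were TRBV segments, 76.2% of the 21 tested. The median log2 fold change was 0.68 over the 21 TRBV segments, -0.21 over the 57 TRAV segments and -0.025 over all genes. All 21 TRBV fold changes were above 0, from 0.20 to 1.18, and 11 of the 21 had no overlap in CPM, against 25% of all genes. At an unadjusted p under 0.05, 17 TRBV and 3 TRAV segments passed.

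Among the 6 with the smallest adjusted p, Trbv15 was at 14.9, 28.4, 17.9 and 19.9 CPM in deltaIcre and at 30.9, 41.6, 38.3 and 49.8 in Ric. The groups did not overlap, and the level rose by 0.99 (log2, SE 0.19, adjusted p 0.00214). Trbv13-2 was at 57.5, 91.8, 78.4 and 80.2 CPM in deltaIcre and at 101, 132, 117 and 142 in Ric, again without overlap (0.68, SE 0.13, adjusted p 0.00256). Trbv12-1 rose by 0.82 (SE 0.14, adjusted p 0.00133), Trbv16 by 0.69 (SE 0.14, adjusted p 0.00361), Trbv20 by 0.80 (SE 0.17, adjusted p 0.00402) and Trbv23 by 1.18 (SE 0.27, adjusted p 0.00637). These 6 passed with each of the 12 libraries left out in turn and in every other fit of levels tried. Trbv3 (0.53, adjusted p 0.0064) did not pass with the trend in length and GC removed (0.20, adjusted p 0.0637), nor did Trbv2 (0.32, adjusted p 0.0238), at 0.04 (adjusted p 0.815), which also missed without deltaIcre 1 (0.0575) or Ric 3 (0.0645). With that trend removed, 14 members rose and 3 TRAV segments fell, Trav16, Trav14-2 and Trav12-3.

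In Ric against WT, 13 of 81 members rose and 1 fell. Of all genes, 32.6% passed, with 15.8% of all genes higher and 16.8% lower. The 13 were 12 TRBV segments and Trgv2. The median was 0.58 over TRBV and -0.18 over TRAV segments, and all 21 TRBV fold changes were above 0, from 0.19 to 1.01. CPM did not overlap for 16 of the 21 TRBV segments, against 39.7% of all genes. Trbv19 was at 49.1, 52.4, 50.9 and 60.4 CPM in WT and at 76.3, 114, 88.8 and 112 in Ric. Its lowest Ric library lay above its highest WT library, and it rose by 0.88 (SE 0.16, adjusted p 0.00102). Trbv20 rose by 0.86 (SE 0.17, adjusted p 0.00142), Trbv16 by 0.71 (SE 0.14, adjusted p 0.0018) and Trbv1 by 0.76 (SE 0.16, adjusted p 0.0024).

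Trbv3 and Trbv13-3, the 2 TRBV segments whose share fell in Ric against WT, did not pass in level there. Trbv3 was at 96.4, 99.98, 100.4 and 104 CPM in WT and at 112, 125, 103 and 125 in Ric, and its log2 fold change was 0.21 (adjusted p 0.190). Trbv13-3 was at 0.19 (adjusted p 0.352). Against deltaIcre both had passed, with Trbv13-3 at 0.64 (adjusted p 0.0085). In a fit of only Ric and WT, Trbv3 passed (adjusted p 0.0324).

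In deltaIcre against WT, 0 of 81 members passed in level with edgeR, where 13.7% of all genes did, 6.99% higher and 6.74% lower. At an unadjusted p under 0.05 there were 6, and DESeq2 called 2, Trbv13-3 and Trgv2. The median log2 fold change was -0.15 over TRBV and 0.06 over TRAV segments. Without deltaIcre 1, Trgv2 and Trav12-3 passed, without deltaIcre 3, Trbv3 and Trbv13-3 passed, and without WT 4, Trgv2 passed.

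**Figure D2:**
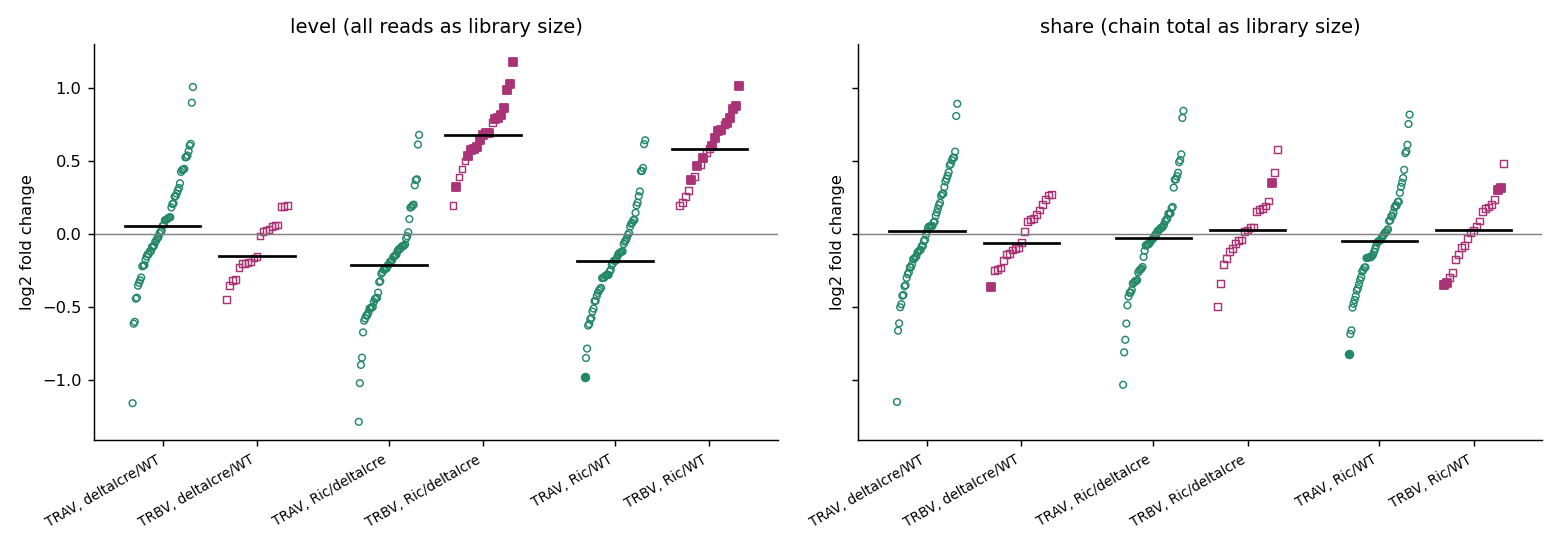
Log2 fold changes from edgeR of every tested TRAV (circles) and TRBV (squares) segment in the 3 comparisons, by level (left) and by share within the chain (right), with filled symbols for adjusted p under 0.05 and a bar at the median. By level the TRBV median is 0.68 in Ric against deltaIcre and 0.58 in Ric against WT, and by share both chains lie around 0.

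The V segments of the beta chain moved with its constant genes. Trbc2 was at 900, 878, 843 and 969 CPM in WT, 573, 1045, 827 and 925 in deltaIcre, and 1115, 1379, 1271 and 1373 in Ric. The Ric libraries stood above all others, with log2 differences of 0.61 (adjusted p 0.00608) against deltaIcre and 0.52 (adjusted p 0.0102) against WT. Trbc1 rose by 0.59 (adjusted p 0.0104) against deltaIcre and by 0.47 (adjusted p 0.0229) against WT, the latter not passing without WT 1 (0.0517), WT 3 (0.0598), WT 4 (0.0632) or Ric 5 (0.0682). Per 100 reads of Trbc1 and Trbc2, there were 50.9 ± 0.644 TRBV reads in WT, 51.8 ± 2.64 in deltaIcre and 52.7 ± 1.30 in Ric (SD, n = 4). Relative to these constant genes, the log2 ratio of summed TRBV reads was 0.025 between Ric and deltaIcre and 0.049 between Ric and WT.

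The alpha chain's constant gene did not follow. Trac was at 1615 to 1727 CPM in WT, 1585 to 2084 in deltaIcre and 1415 to 1556 in Ric. It fell by 0.34 in Ric against deltaIcre (adjusted p 0.00827), and was at -0.17 against WT (adjusted p 0.120), where it passed without deltaIcre 1 (0.0374) or with the trend in length and GC removed (-0.27, adjusted p 0.0153). Reads of Trbc1 and Trbc2 per Trac read were 0.737 to 0.871 in WT, 0.533 to 0.841 in deltaIcre and 1.12 to 1.47 in Ric, without overlap between Ric and the others. TRAV reads numbered 8.24 per 100 Trac reads in WT, 7.57 in deltaIcre and 8.43 in Ric.

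**Figure D3:**
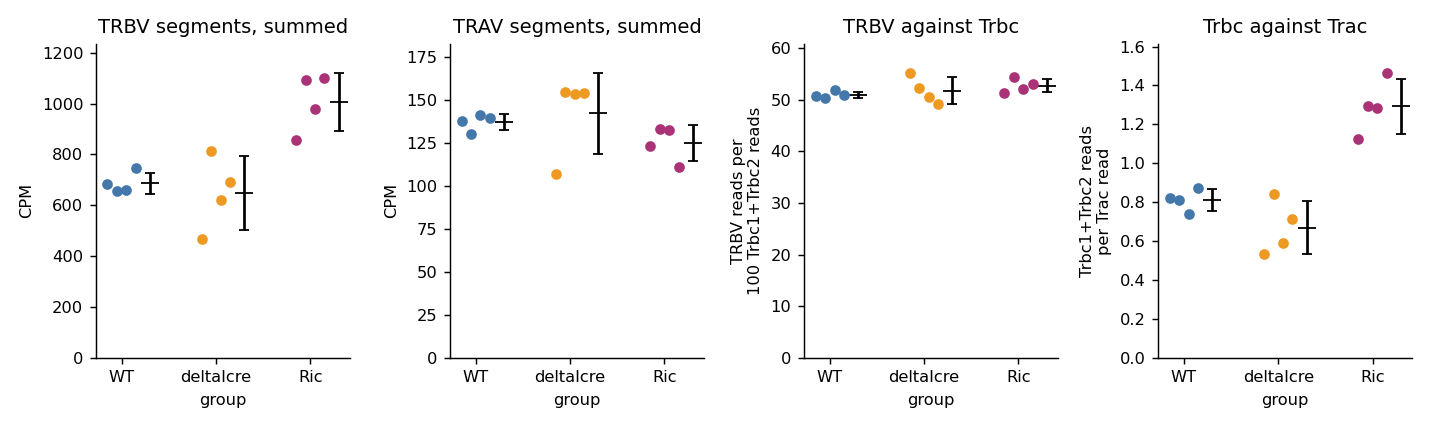
Per library, with group mean and SD (n = 4): summed TRBV and summed TRAV reads (CPM), TRBV reads per 100 reads of Trbc1 and Trbc2, and reads of Trbc1 and Trbc2 per Trac read (linear axes from 0). Ric libraries are apart from the others in the summed TRBV level, at 858 to 1102 CPM, and in beta against alpha constant reads, while TRBV reads per 100 constant reads overlap between groups, from 49.2 to 55.2 over the 12 libraries.

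Of 15 constant, CD3 and recombination genes, 13 were in the table and 12 had enough reads for a test. In Ric against deltaIcre, 7 rose and 1 fell, in Ric against WT, 6 rose and 0 fell, and in deltaIcre against WT, 2 rose and 0 fell, both gamma constant genes. Over all genes tested, 27.2%, 32.6% and 13.7% passed in the same order. The CD3 chains carry the receptor's signal into the cell. Cd3d rose by 0.67 in Ric against deltaIcre (adjusted p 0.00568) and Cd247, the zeta chain, by 0.47 (adjusted p 0.00997), while Cd3e was at -0.05 (adjusted p 0.718). Cd3g was at 0.56 (adjusted p 0.0317) and missed without deltaIcre 4 (0.0614), Ric 3 (0.0642), Ric 4 (0.0629) or Ric 5 (0.0713), or with the trend in length and GC removed (0.35, adjusted p 0.129). Ptcra, the partner of the beta chain in thymocytes, had 6 reads in all libraries together.

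J segments, which the V segment is joined to, were tested as counts of calls. Of 46 Traj segments, 0 rose and 7 fell in Ric against deltaIcre, with a median of -0.46, where 13.3% of all genes fell, and 0 passed against WT, with a median of -0.28 (3 at an unadjusted p under 0.05). Of 14 Trbj segments, 4 rose and 3 fell in Ric against deltaIcre, and 3 rose and 3 fell against WT, where 27.2% and 32.6% of all genes passed in either direction. In deltaIcre against WT, 0 of 46 Traj and 0 of 14 Trbj segments passed with edgeR (3 and 1 at an unadjusted p under 0.05).

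The alpha chain was spread over more segments than the beta chain. Trav14-1 (chr14:53554022-53554558, plus strand) led with 5.28% of TRAV reads on average, followed by Trav17 at 4.36%, Trav12-2 at 4.23% and Trav14n-3 at 4.04%. The first 8 TRAV segments held 33.1% of the chain, and 34 of 73 held at least 1%. Per base of exon, 7 of these 8 also led. The leading segment of a library was 1 of 8 different TRAV segments, with Trav14-1 first in 4 libraries. The groups overlapped for Trav14-1, with 5.26% ± 0.717 in WT, 4.96% ± 0.590 in deltaIcre and 5.61% ± 0.834 in Ric (SD, n = 4).

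No TRAV segment passed in share in deltaIcre against WT or in Ric against deltaIcre, and 1 of 57 did in Ric against WT (edgeR). At an unadjusted p under 0.05 there were 2 in each comparison. Trav14-3 held 2.85%, 2.27%, 2.62% and 5.02% of TRAV reads in WT, 1.98%, 2.18%, 3.09% and 1.77% in deltaIcre, and 1.64%, 1.86%, 1.24% and 2.51% in Ric. WT 5 was the high library, at 166 of 3307 reads (95% Wilson interval 4.33% to 5.82%), and WT and Ric overlapped. The share fell by 0.83 on the log2 scale (SE 0.30, adjusted p 0.0479), and without WT 5 the value was -0.52 (adjusted p 0.200). It also missed without WT 1 (0.0681), WT 4 (0.0601), Ric 2 (0.0925), Ric 3 (0.0848) or Ric 4 (0.134). With the copies of each TRAV segment summed, Trav14-3 and its copies were at -0.05 (adjusted p 0.817). The level of Trav14-3 fell by 0.98 (adjusted p 0.0272) and missed without WT 5 (-0.66, adjusted p 0.118), Ric 2 (0.0578) or Ric 4 (0.0798).

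Single libraries stood out among TRAV segments. Trav17 held 3.47%, 5.66%, 6.02% and 3.81% in WT, 2.74%, 2.42%, 3.80% and 2.99% in deltaIcre, and 4.41%, 4.87%, 9.35% and 2.76% in Ric. In Ric 4 it took 264 of 2823 TRAV reads (95% Wilson interval 8.33% to 10.5%), the highest share of any TRAV segment in any library. Ric against deltaIcre gave 0.84 on the log2 scale (adjusted p 0.0585), and without Ric 5, the lowest Ric library, 1.05 (adjusted p 0.0282). Trav12-3 reached 6.34% in deltaIcre 5 (5.58% to 7.19%) with 2.59% in the next library of the group. Trav9-2 reached 6.08% in deltaIcre 4 (5.28% to 7.001%) with 2.89% in the next.

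Trav6-4 held 3.29% of TRAV reads in deltaIcre 5, 117 of 3551 reads (2.76% to 3.93%), and 0.355% to 0.840% in the other deltaIcre libraries. This was 3.92 times the next library of the group, the one segment of at least 1% in a library at over 3 times the next. Intervals cover counting error only, since the reads carry no molecular identifiers. Trav12-3 and Trav6-4 were thus both high in deltaIcre 5, and the shares of neither passed in any comparison with all 12 libraries. With deltaIcre 1 and 3 both left out, that group held only deltaIcre 4 and deltaIcre 5, the high library. Trav12-3 had 77 and 225 reads there, and Trav6-4 had 25 and 117. In that fit, Trav12-3 passed in deltaIcre against WT (1.25, adjusted p 0.0178) and in Ric against deltaIcre (-1.06, adjusted p 0.0296), and so did Trav6-4 (1.63, adjusted p 0.0292, and -1.77, adjusted p 0.0150). The group's value in that fit leans on deltaIcre 5.

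**Figure D4:**
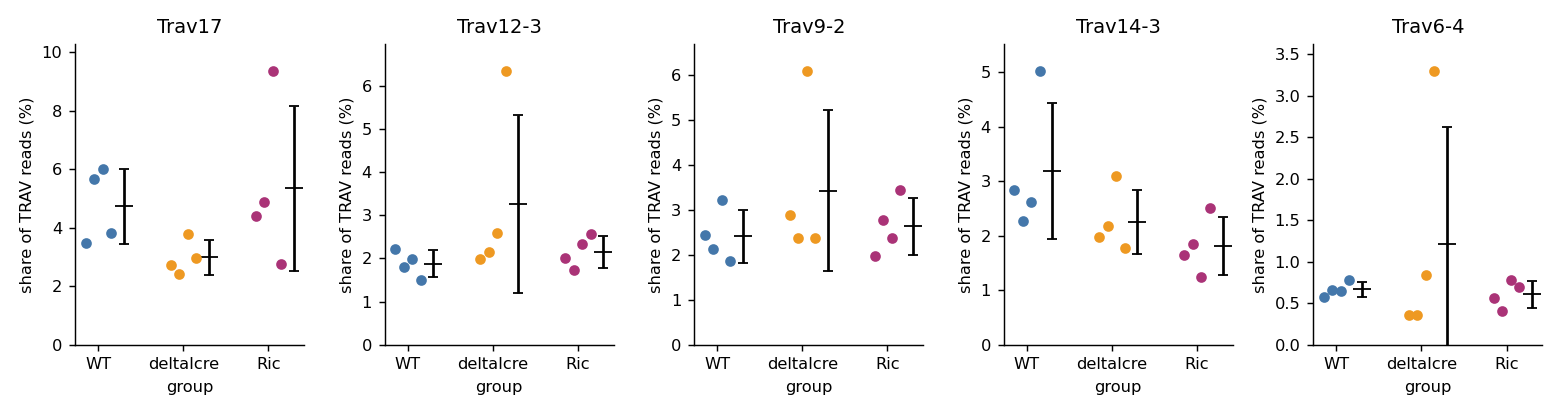
Share of TRAV reads (percent, linear axis from 0) per library of Trav17, Trav12-3, Trav9-2, Trav14-3 and Trav6-4, with group mean and SD (n = 4; a bar that would pass below 0 ends at 0). In each panel 1 library lies above the rest: Ric 4 at 9.35% for Trav17, deltaIcre 5 at 6.34% for Trav12-3 and 3.29% for Trav6-4, deltaIcre 4 at 6.08% for Trav9-2 and WT 5 at 5.02% for Trav14-3.

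Trav1, part of the receptor of mucosal-associated invariant T cells, held 1.16%, 1.23%, 0.93% and 1.06% of TRAV reads in WT, 2.23%, 1.47%, 1.18% and 1.44% in deltaIcre, and 1.76%, 1.93%, 1.45% and 1.23% in Ric. Its Ric libraries did not overlap with WT, and the difference of 0.55 did not pass (adjusted p 0.144). Trav10 held 0.956% ± 0.144 in WT, 0.810% ± 0.172 in deltaIcre and 1.02% ± 0.152 in Ric (SD, n = 4). Beside Trav1, the groups did not overlap for Trav10n and Trav6d-3 (higher in deltaIcre than in WT), Trav6d-3 (higher in Ric than in WT) and Trav14-2 (lower in Ric than in deltaIcre), which is 2, 2 and 1 of 73 TRAV segments against 17.8%, 39.7% and 25% of all genes by CPM. Trav6d-3 had 18 reads in all libraries, and 1.01% of its 50-base words were unique to it.

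The spread between libraries was larger than counting error for many segments. Over segments with at least 100 reads, the variance of the share within groups was a median of 1.99 times the counting variance for 56 TRAV segments and 5.89 times for 21 TRBV segments. It was over 3 times for 20 of the TRAV and 19 of the TRBV segments, with the highest values for Trav17 (17.6) and Trbv2 (24.2). Counting variance shrinks with depth, and TRBV segments have more reads each.

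Diversity was measured as the effective number of segments, and the groups overlapped in it for both chains. The effective number of segments (the exponential of the Shannon entropy of the shares, equal to the number of segments if all had the same share) was 46.4 ± 0.847 in WT, 46.4 ± 1.17 in deltaIcre and 45.1 ± 2.72 in Ric for TRAV (SD, n = 4). By library it was 47.3, 46.7, 45.4 and 46.1 in WT, 48.1, 46.1, 46.2 and 45.3 in deltaIcre, and 46.1, 45.7, 41.2 and 47.4 in Ric. Ric 4, the library in which Trav17 was high, was lowest, and the groups overlapped. Thinned to the lowest TRAV total of the 12 libraries, the means were 46.1, 46.2 and 44.9.

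For TRBV the effective number ranged over 14.8 to 15.04 in WT, 14.4 to 15.6 in deltaIcre and 15.01 to 15.5 in Ric. Pielou's evenness, the entropy as a fraction of its maximum, was 0.894 in WT, 0.894 in deltaIcre and 0.887 in Ric for TRAV, and 0.840, 0.839 and 0.847 for TRBV. A library held reads of 69 to 73 of the 73 TRAV segments and of 23 to 25 of the 25 TRBV segments. The TRBV mean was 0.33 higher in Ric than in WT, a difference that was -0.033 when Trbv3, the leading segment, was left out. By the inverse Simpson index, which gives leading segments more weight, TRBV values did not overlap between WT (12.3 to 12.7) and Ric (12.9 to 13.4), with deltaIcre at 12.03 to 13.3. The share of the leading TRBV segment was 13.9% to 15.2% in WT, 12.2% to 12.7% in deltaIcre and 11.99% to 13.01% in Ric.

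**Figure D5:**
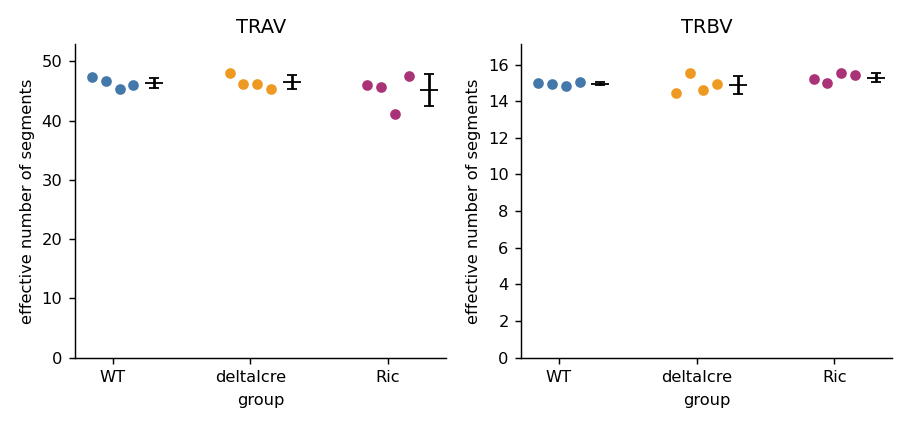
Effective number of TRAV (left) and TRBV (right) segments per library, with group mean and SD (n = 4; linear axes from 0). The groups overlap for TRAV, where Ric 4 is lowest at 41.2, and TRBV values lie between 14.4 and 15.6.

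The distance between 2 libraries in their shares (Jensen-Shannon distance, base 2, from 0 for equal shares to 1 for no shared segment) described how alike the repertoires were. For TRBV the median was 0.0625 over pairs within a group and 0.0778 over pairs between groups. Pairs within WT had a median of 0.0498, pairs within deltaIcre 0.0701 and pairs within Ric 0.0663. Pairs of deltaIcre with WT had 0.0760, pairs of Ric with WT 0.0847 and pairs of Ric with deltaIcre 0.0729. For TRAV the medians were 0.158 within and 0.163 between groups. By group they were 0.143 within WT, 0.170 within deltaIcre and 0.169 within Ric. Counting error adds to a distance, and TRAV has fewer reads spread over more segments, so that TRAV and TRBV distances cannot be compared. Pairs share libraries, and no test was made on them.

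Gamma and delta segments were rare in these CD4+ cells. Trgv2 had 2, 0, 7 and 0 reads in WT, 4, 11, 14 and 13 in deltaIcre, and 6, 28, 19 and 9 in Ric. Relative to scaled library size, Ric had 7.13 times the reads of WT (exact 95% interval for counting error 3.52 to 16.3), and deltaIcre 5.13 times (2.46 to 11.98). In the edgeR fit it rose in Ric against WT (2.79, SE 0.76, adjusted p 0.0118) and was at 2.35 in deltaIcre against WT (adjusted p 0.0594). The latter passed without WT 4 (3.73, adjusted p 0.0226), in which 7 of the 9 WT reads lie, or deltaIcre 1 (0.0393).

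Most other gamma genes given here stood higher in the mutant groups than in WT, while Tcrg-C4 passed in neither comparison with WT. Tcrg-V4 had 1 read in the 4 WT libraries, 12, 52, 46 and 16 in deltaIcre and 37, 21, 31 and 32 in Ric. The pooled reads gave a ratio to WT of 138 (exact 95% interval for counting error 24.4 to 5512) in deltaIcre and 125 (22.0 to 4984) in Ric. With WT set to a floor of 3 reads, the ratios were 46.2 and 41.7. In the edgeR fit, Tcrg-V4 rose by 6.59 (adjusted p 6.31e-05) and 6.40 (adjusted p 7.54e-05) on the log2 scale, which also rests on 1 WT read. The gamma constant gene Tcrg-C1 was at 2.53 to 3.88 CPM in WT, 9.69 to 25.96 in deltaIcre and 22.6 to 32.3 in Ric, without overlap between WT and the others. It rose by 2.58 in deltaIcre (adjusted p 1.52e-05) and 3.21 in Ric (adjusted p 1.31e-06) against WT. Tcrg-C4, another gamma constant gene, was at -0.50 in deltaIcre (adjusted p 0.354) and at 0.60 in Ric (adjusted p 0.146) against WT. Trgj1, a gamma J segment, rose by 2.08 (adjusted p 0.0061) and 3.29 (adjusted p 7e-05).

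The delta chain did not follow the gamma genes. Trdc, its constant gene, had 130 to 222 reads in a library and passed in no comparison, and the 2 TRDV members had 41 to 79 reads a library. Trdv1 held 71.6% ± 4.67 of TRDV reads in WT, 64.8% ± 2.73 in deltaIcre and 70.5% ± 4.06 in Ric (SD, n = 4). Trdv2-2 overlaps another gene on the opposite strand, and the strand setting of the counting is not given in the sources used here. Over the whole list of 6 gamma delta T cell markers, of which Tcrg-C1 and Tcrg-C2 are a part, the sum was 11.1 to 15.4 CPM in WT, 21.1 to 39.2 in deltaIcre and 34.1 to 46.7 in Ric. Not all members followed the sum. Sox13 had 4 reads in WT, 52 in deltaIcre and 1 in Ric, and Blk had 26, 16 and 72. The 5 reads of Trdv4 were all in WT. The part of gamma delta T cells in the gamma reads was not tested.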

How the data were processed

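The authors deposited raw counts of reads per gene for 12 libraries. Per the labels' protocols, SMART-Seq v4 cDNA was fragmented and built into libraries, with a kit that the series text and the sample protocol name differently. Alignment was with STAR 2.5.1b to mm10 (GRCm38) and counting with HTSeq, per the submitters' processing notes. The annotation release, the counter's version and whether it used strand were not given in the sources used here.

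V segments were matched by symbol to GENCODE M21. Genes were filtered with filterByExpr (13196 left, 81 of 101 members), and 1 quasi-likelihood model of edgeR 4.0.16 (R 4.3.3, TMM, robust) covered the 12 libraries, with Benjamini-Hochberg adjustment over all genes and a threshold of 0.05. The fit of shares put the summed V reads of a chain in place of the library size for its segments, and all other genes kept the TMM-scaled library size. Trgv2 was left out of it, since it is alone in its chain and 2 libraries had none of its reads, which departs from the design as written. The biological coefficient of variation was 17.4%. Both fits were tested on simulated data. Thinning used 200 draws with fixed seeds. Reads without a unique alignment and outside genes stayed out of all totals.

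Members, gene lists and tests were chosen with earlier results of these data known, among them that deltaIcre 1 and 3 stood apart. Named genes were the leading 8 TRAV, 8 TRBV and the TRDV and TRGV members, up to 6 called segments per comparison and fit, the 2 largest rises and falls in mean share, segments typed for unconventional T cells or superantigens, segments at over 3 times the next library of the group (at least 1% of the chain), and the receptor genes. Trav11 and Trav11d were not analysed here, and Trav11n counts as a member in all TRAV totals. Named after their values were seen were Trav10n, Trav6d-3, Trav14-2, Trav16, Trgj1, Trbv29's and Trav9-2's single libraries, and the gamma V segments listed as Tcrg-V. Alternatives were other filters, DESeq2 1.42.0 and its size factors, fits of 2 groups, replicate number as block, removal of length and GC trends, summed copies, functional segments only, other indices, and leaving out each library.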

Additional observations from a re-analysis of the deposited data

Results flagged for a closer look

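A library was singled out where its gap to the nearest of the 4 libraries of its group was most of the group's range, by Dixon's 95% limit, which chance passes in about 1 of 20 groups. Of 105 groups of 4 looked at, 7 passed: 6 in deltaIcre, 1 in WT and 0 in Ric. The groups were those of the named segments and of chain values. Trav6-4 had been named for its high library, and Trav12-3 and Trav9-2 for large shifts in mean share. The 7 were thus partly picked by the same values and cannot be set against chance. Among TRAV segments, Trav12-3 was high in deltaIcre 5 at 6.34% of TRAV reads, with 1.98% to 2.59% in the other deltaIcre libraries. Trav6-4 was high in the same library at 3.29%, with 0.355% to 0.840% in the others. Trav9-2 was high in deltaIcre 4 at 6.08%, with 2.37% to 2.89% in the others. Trav4-4-dv10 was at 4.32% in deltaIcre 3, with 3.60% to 3.70% in the others. Among TRBV segments, Trbv19 was at 10.5% in deltaIcre 5, with 8.87% to 9.03% in the others, and Trbv20 was at 3.98% in WT 4, with 3.25% to 3.38% in the others. Summed TRAV reads were low in deltaIcre 1 at 107 CPM, with 154 to 155 in the other deltaIcre libraries. That library was also the lowest of the 12 in summed TRBV reads, at 467 CPM.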

How the results depend on the processing

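No fold change that passed the test changed sign under any alternative. Leaving out each library in turn, calls by level ranged from 0 to 2 in deltaIcre against WT (0 with all libraries), 14 to 19 in Ric against deltaIcre (16) and 12 to 17 in Ric against WT (14), and calls by share from 0 to 3 (1), 0 to 4 (1) and 2 to 5 (5). In deltaIcre against WT, calls by level were 2 with DESeq2, 2 with the trend in length and GC removed and 4 without both deltaIcre 1 and 3, and calls by share were 0 with no filter, 0 in a fit of the groups compared, 2 with the trend removed and 4 without both libraries. In Ric against deltaIcre, calls by share were 0 with no filter, 3 with a stricter filter, 0 in a fit of the groups compared, 2 with the trend removed and 4 without both libraries. The replicate block gave 1 call by level in deltaIcre against WT and 3 by share in Ric against WT, and with the trend removed as well 2 by level and 2 by share in deltaIcre against WT and 2 by share in Ric against WT. Under the block, the shares of Trbv20 (adjusted p 0.115) and Trav14-3 (0.117) in Ric against WT and of Trbv15 (0.0647) in Ric against deltaIcre, and the level of Trav14-3 in Ric against WT (0.0626), did not pass in edgeR, while the share of Trbv2 in Ric against deltaIcre did (0.0472). The labels do not say that the numbers pair libraries, although WT and deltaIcre carry the same numbers. Whether same-numbered libraries share a mouse was not tested. Correlations of same-numbered deviations ran from 0.029 to 0.203 in deltaIcre and WT (5 of 8 libraries best with their own number). They ran from -0.043 to 0.062 in Ric and deltaIcre (0 of 6) and from -0.052 to 0.043 in Ric and WT (2 of 6). The TRBV effective number in Ric less WT (0.33) was -0.033 without Trbv3 and 0.59 as inverse Simpson. The excess TRBV distance between Ric and deltaIcre over that within them (0.0047) was 0.00086 to 0.0156 with a library left out, highest without deltaIcre 3. Relative to constant genes, the log2 ratio of summed TRAV reads was 0.16 in Ric against deltaIcre (main -0.19) and 0.034 in Ric against WT (main -0.13, and -0.23 without TMM), and that of summed TRBV reads was 0.025 (main 0.64) and 0.049 (main 0.55). Shares with the length and GC trend removed, and indices per base of exon, were chosen after seeing the data. Depth limits TRAV more than TRBV, at 1972 reads in the shallowest library.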
